A study of Mus musculus with 9 samples.

Results

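Cxcl9, Cxcl10, Cxcl13 and Cxcl16 encode chemokines that draw lymphocytes into tissue, and Cxcr3 and Cxcr6 encode receptors for 3 of them. These 6 genes, picked by symbol out of the 24411 genes listed for each mouse, were followed in hippocampal RNA-Seq of 9 male wild-type C57BL/6J mice, described as 10 weeks old in the labels and injected at 9 weeks of age. Every mouse received adeno-associated virus serotype 9 (AAV9), a gene transfer vector, injected into both hippocampi, which were collected on day 10. Each vector encoded Egfp with CTG repeats in the 3′-UTR of its mRNA. CUG300 mice treated with CWG-cPIP (n = 3) received the vector with 300 repeats mixed with CWG-cPIP at 83 μg/kg. CUG300 mice treated with vehicle (n = 3) received the same vector without the compound, and CUG10 mice (n = 3) received a vector with 10 repeats and vehicle. CWG-cPIP is a cyclic pyrrole-imidazole polyamide, a synthetic compound that binds the DNA minor groove at CAG and CTG repeats. The repeat RNA came from a vector and not from an endogenous disease gene, its promoter is not given in the sources used here, and no mouse was left without AAV9. CUG10 mice given CWG-cPIP were not analysed here.

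CXC chemokines are small proteins that guide leukocytes along a gradient through G protein–coupled receptors. CXCL9 and CXCL10 are made by many cell types after interferon exposure, and both bind CXCR3, which sits on activated T cells and NK cells. CXCL16 is made as a membrane-anchored protein that the proteases ADAM10 and ADAM17 can release, and its receptor CXCR6 marks effector and tissue-resident T cells. CXCL13 attracts B cells and follicular T cells through CXCR5 in lymphoid organs. In the infected or inflamed brain, CXCL9 and CXCL10 are made by microglia, astrocytes and infiltrating myeloid cells, and attract T cells to the site.

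In the GRCm38 annotation (GENCODE M21), Cxcl9 (chr5:92321347-92328079) and Cxcl10 (chr5:92346638-92348889) lay next to each other on the minus strand, with 18558 bases between them. Cxcl13 lay on the plus strand of the same chromosome (chr5:95956951-95961068). Cxcl16 lay on the minus strand at chr11:70453983-70459984. The receptors lay apart from the ligands, Cxcr3 on the minus strand at chrX:101731535-101734269 and Cxcr6 on the plus strand at chr9:123806475-123811760. Opposite-strand genes overlapped exons of 2 members, namely Art3 at Cxcl10 and Zmynd15 at Cxcl16. The library kit kept strand, but the use of strand in counting is not given in the sources used here, so reads of these overlapping genes cannot be told apart with certainty.

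Promoter windows from RefSeq (GRCm38.p6), running from 250 bases before to 50 after each gene start, were found for 5 of the 6 genes, all but Cxcl16. They were searched on both strands for the interferon-stimulated response element (ISRE, GAAA and GAAA with 2 bases of any kind between), the interferon gamma-activated site (GAS, TTCNNNGAA) and the NF-kB consensus. Of 32851 RefSeq promoter windows, 3.44% held the ISRE, 8.3% the GAS and 8.46% the NF-kB consensus. Cxcl10 was the only one of the 5 with a match. The sites are shown because Cxcl10 had the largest difference between groups of the 6 genes, with the motif in capitals and 8 flanking bases on each side, all on the minus strand of chromosome 5.
Cxcl10 ISRE: acgctttgGAAAGTGAAActtacctc
Cxcl10 NF-kB, distal: aggggagaGGGAAATTCCaagttcat
Cxcl10 NF-kB, proximal: gtttacagGGGACTTCCCtcgggttg
The ISRE lay 213 to 204 bases before the start (sequence shown, chr5:92349085-92349110). The distal NF-kB match lay 159 to 150 bases before it (chr5:92349031-92349056), and the proximal match lay 103 to 94 bases before it (chr5:92348975-92349000). The proximal match overlapped another match, shifted by 1 base, at 104 to 95. The windows of Cxcl9, Cxcl13, Cxcr3 and Cxcr6 held 0 matches to any of the 3 motifs, which says only that these letters are not in these windows.

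Values are regularized log2 counts (rlog), so a difference of 1 is a doubling. The rlog method draws genes with few reads towards their mean, so differences of low genes such as the receptors are understated. A gene was tested when its mean over the 9 mice was at least log2(10), which 14867 genes reached. All 6 genes were above that level in every mouse. Depth cannot be read from rlog values. The median gene value ranged between 8.43 and 8.54 over the 9 mice, and the correlation between mice of a group, across genes, ranged between 0.97 and 0.996. The replicates are labelled as separate mice.

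**Figure D1:**
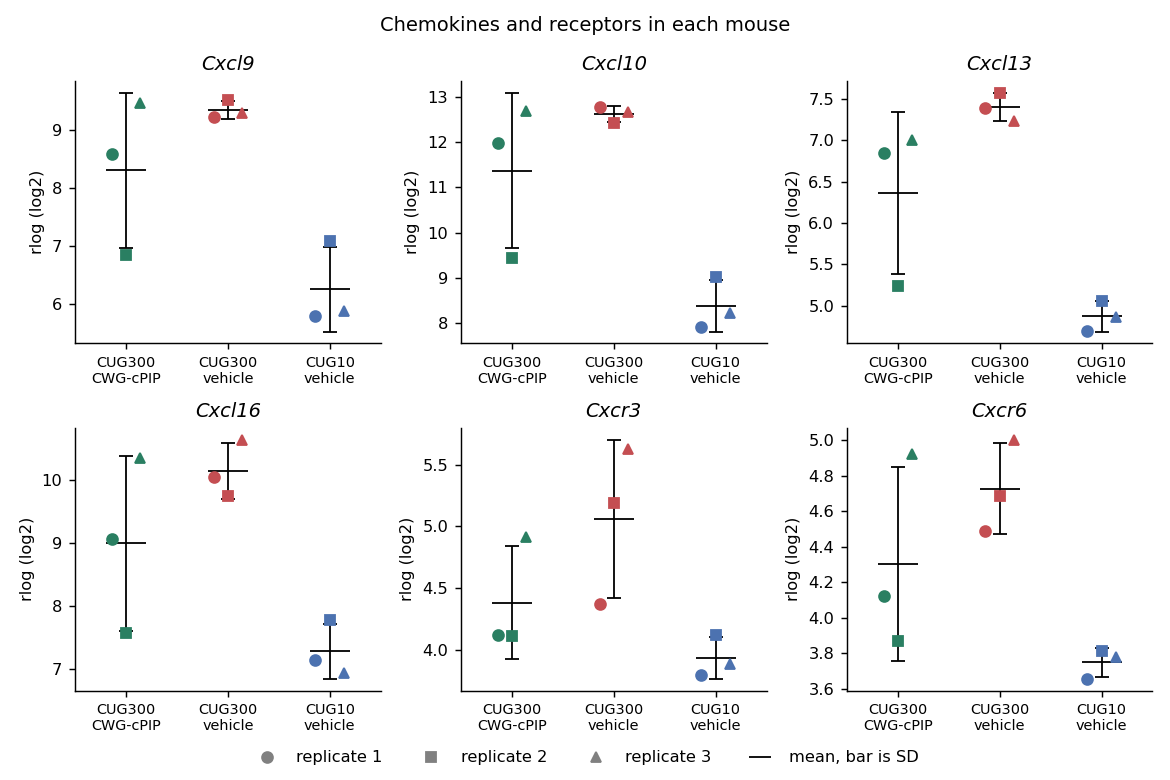
rlog values (log2 scale) of the 6 genes in each of the 9 mice, with group mean and SD (n = 3 mice a group). Vehicle-treated CUG300 mice lay above CUG10 mice for all 6 genes, and the CWG-cPIP–treated mice were spread widely, from 6.85 to 9.47 for Cxcl9.

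The comparison of vehicle-treated CUG300 mice with CUG10 mice asks what differed with the longer repeat in the absence of the compound. The 4 ligands were 5.79- to 18.9-fold higher in CUG300 mice, and Cxcr6 was 1.97-fold higher. These 5 genes passed the test (limma, adjusted p under 0.05), against 7.37% of all tested genes called higher and 10.7% called in either direction. Cxcr3 missed the threshold, with an adjusted p of 0.0534 in limma. For all 6 genes every CUG300 mouse was above every CUG10 mouse, a pattern that 18.2% of tested genes showed. The median log2 fold change of the 6 genes was 2.69, and that of all tested genes was -0.01.

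Among the CXCR3 ligands, Cxcl10 had rlog values of 12.77, 12.43 and 12.68 in vehicle-treated CUG300 mice and 7.91, 9.02 and 8.24 in CUG10 mice. The CUG300 mice were close together, and CUG10 mouse 2 was the highest of its group. The log2 fold change of Cxcl10 was 4.24 ± 0.70 (SE, limma adjusted p = 0.0213), which ranked 4 by size among the tested genes. Cxcl9 had values of 9.23, 9.51 and 9.29 in CUG300 mice, against 5.80, 7.09 and 5.87 in CUG10 mice. CUG10 mouse 2 again stood above the other 2 mice of its group, without reaching the CUG300 mice. The log2 fold change of Cxcl9 was 3.09 ± 0.59 (SE, limma adjusted p = 0.0239).

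The difference between Cxcl10 and Cxcl9 within a mouse was also compared between the groups. Cxcl10 minus Cxcl9 averaged 3.28 ± 0.33 in vehicle-treated CUG300 mice and 2.14 ± 0.22 in CUG10 mice (SD, n = 3 each, log2 scale). The groups did not overlap, and the gap of 1.14 gave p = 0.1 in a two-sided exact permutation test, the smallest that 3 against 3 mice allow. Of 12 such tests on differences between members, none could go lower, and the Benjamini-Hochberg value was 0.2. In CWG-cPIP–treated mice Cxcl10 minus Cxcl9 averaged 3.07 ± 0.43 (SD, n = 3), which differed from vehicle-treated CUG300 mice by -0.22 (exact permutation p = 0.6).

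Cxcl13, the ligand of B cell follicles, had values of 7.39, 7.58 and 7.24 in vehicle-treated CUG300 mice and 4.69, 5.06 and 4.86 in CUG10 mice. Both groups were tight, with SDs of 0.17 in CUG300 mice and 0.18 in CUG10 mice. The log2 fold change was 2.53 ± 0.40 (SE, limma adjusted p = 0.0207). As for every gene, the SE and p came from 1 fit that pools the spread of all 3 groups. The CWG-cPIP–treated mice, outside this comparison, had a Cxcl13 SD of 0.98. Cxcr5, the receptor of CXCL13, stayed under the minimum and was not tested. It is outside the rule for named genes and was chosen after its values were seen. Its values were 2.92, 3.55 and 3.74 in CUG300 mice and 2.78, 2.78 and 2.82 in CUG10 mice.

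Cxcl16, the membrane-anchored ligand, had values of 10.04, 9.75 and 10.63 in vehicle-treated CUG300 mice and 7.14, 7.78 and 6.94 in CUG10 mice. The lowest CUG300 mouse was clear of the highest CUG10 mouse. The log2 fold change was 2.85 ± 0.59 (SE, limma adjusted p = 0.0265). Zmynd15, whose exons overlap Cxcl16 on the opposite strand, had values of 5.11, 5.26 and 6.38 in CUG300 mice and 4.13, 4.28 and 4.18 in CUG10 mice. CUG300 mouse 3 was the highest for both genes, and the part of shared reads in either gene was not tested. Art3, on the strand opposite to Cxcl10, had values of 6.43, 6.44 and 6.22 in CUG300 mice and 5.90, 5.93 and 5.86 in CUG10 mice. The overlapping genes did not pass the test, with a limma adjusted p of 0.0992 for Art3 and 0.0552 for Zmynd15.

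The receptors differed less than the ligands. Cxcr6 had values of 4.49, 4.69 and 5.0 in vehicle-treated CUG300 mice and 3.66, 3.81 and 3.78 in CUG10 mice. The groups were apart, and the log2 fold change was 0.98 ± 0.25 (SE, limma adjusted p = 0.0402). Cxcr3 had values of 4.37, 5.19 and 5.63 in CUG300 mice and 3.80, 4.12 and 3.88 in CUG10 mice. CUG300 mouse 1 was only slightly above the highest CUG10 mouse, and the log2 fold change was 1.13 ± 0.32 (SE), with a 95% interval of 0.41 to 1.85. The difference of Cxcl10 minus Cxcr3 within a mouse averaged 7.57 ± 0.73 in CUG300 mice and 4.46 ± 0.40 in CUG10 mice, both with n = 3 mice (SD). That of Cxcl16 minus Cxcr6 averaged 5.41 ± 0.31 in CUG300 mice and 3.54 ± 0.40 in CUG10 mice (SD, n = 3 each). Neither overlapped between the groups, with exact permutation p = 0.1 for each, again the smallest possible. The rlog scale narrows the differences of low genes, and its part in the gap between ligands and receptors was not tested.

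The number of calls in this comparison changed over all genes when single mice were left out, and the 6 genes changed with it. None of the 6 genes passed limma's threshold when CUG10 mouse 1, 2 or 3, or vehicle-treated CUG300 mouse 3, was left out, and in these fits at most 2 of the 14867 tested genes were called. Without CWG-cPIP mouse 1, 2 of the 6 passed (Cxcl10 and Cxcl13), against 1.78% of all tested genes. The count was 4, without Cxcr6, when CUG300 mouse 2 was left out (16.7% of all tested genes called), and stayed at 5 without CWG-cPIP mouse 2 (12.6%). All 6 passed without CUG300 mouse 1 (13.8%) or without CWG-cPIP mouse 3 (15.5%). Over these omissions the log2 fold change of Cxcl10 stayed between 4.0 and 4.55, with adjusted p between 0.000227 and 0.101.

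**Figure D2:**
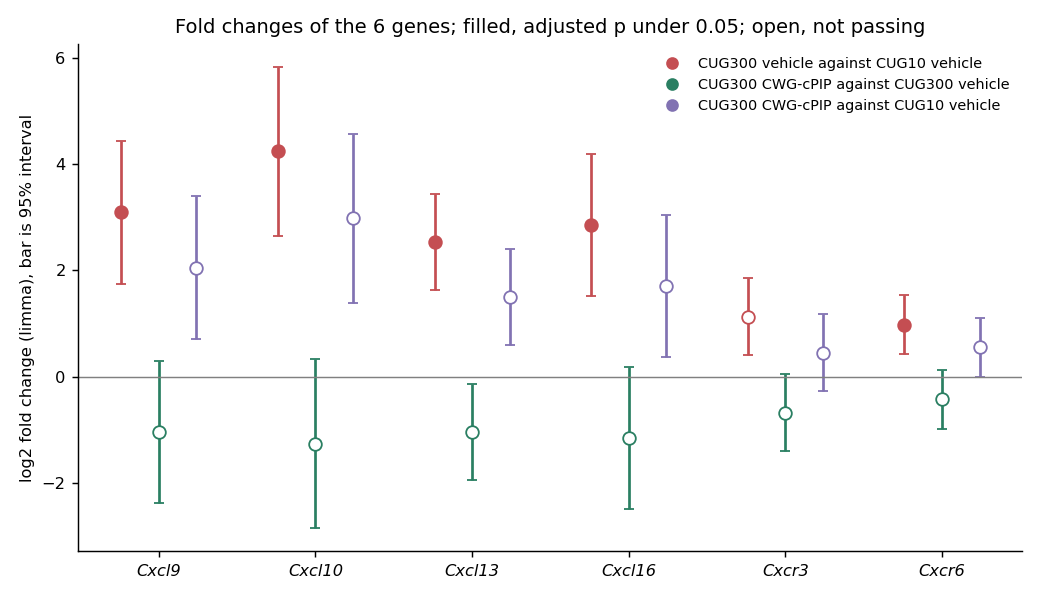
log2 fold changes of the 6 genes with 95% intervals from limma in the 3 comparisons, which share mice. Filled points have an adjusted p under 0.05. The 5 filled points all belong to vehicle-treated CUG300 mice against CUG10 mice, and Cxcl10 is the highest at 4.24.

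The comparison of CWG-cPIP with vehicle in CUG300 mice asks what differed with the compound at the same repeat length. The mean of each of the 6 genes was lower in CWG-cPIP–treated mice, which 50.6% of tested genes also were, and none passed the test. Limma called 0 of the 14867 tested genes in this comparison (0% in either direction), with 1312 genes (8.82%) at an unadjusted p under 0.05. Limma without trend and with robust estimation also called 0. It called 3 genes with only the groups compared, 3 without CWG-cPIP mouse 3 and 1 without CUG10 mouse 3, none of them among the 6. Among the 6 genes, only Cxcl13 had an unadjusted p under 0.05, against 3.6% of tested genes with such a p in the lower direction.

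Cxcl13 had values of 6.85, 5.23 and 7.0 in CWG-cPIP–treated CUG300 mice and 7.39, 7.58 and 7.24 in vehicle-treated CUG300 mice. All 3 treated mice were below all 3 vehicle mice, a pattern that 3.5% of tested genes showed. The log2 fold change was -1.04 ± 0.40 (SE), with an unadjusted p of 0.0281 and an adjusted p of 0.484 in limma, and its 95% interval ran from -1.94 to -0.14. It was -0.48 without CWG-cPIP mouse 2 and -1.36 without CWG-cPIP mouse 3.

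For the other 5 genes the treated mice overlapped the vehicle mice. Cxcl10 had values of 11.99, 9.43 and 12.69 in CWG-cPIP–treated mice and 12.77, 12.43 and 12.68 in vehicle-treated mice. Mouse 2 stood far below, while mouse 3 lay inside the vehicle range. The log2 fold change of Cxcl10 was -1.26 ± 0.70 (SE, limma adjusted p = 0.484), with a 95% interval of -2.84 to 0.33. It was -0.29 without CWG-cPIP mouse 2 and -1.92 without CWG-cPIP mouse 3.

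Cxcl9 had values of 8.59, 6.85 and 9.47 in CWG-cPIP–treated mice, against 9.23, 9.51 and 9.29 in vehicle-treated mice. The treated mice had an SD of 1.33 and the vehicle mice one of 0.15. Cxcl16 had values of 9.06, 7.56 and 10.34 in CWG-cPIP–treated mice, against 10.04, 9.75 and 10.63 in vehicle-treated mice, and again mouse 3 lay in the vehicle range. The log2 fold changes were -1.04 for Cxcl9, with a 95% interval of -2.38 to 0.30, and -1.15 for Cxcl16, with an interval of -2.48 to 0.19.

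The receptors had smaller differences. Cxcr3 had values of 4.12, 4.11 and 4.91 in CWG-cPIP–treated mice and 4.37, 5.19 and 5.63 in vehicle-treated mice. Cxcr6 had values of 4.12, 3.87 and 4.92 in CWG-cPIP–treated mice and 4.49, 4.69 and 5.0 in vehicle-treated mice. In both genes mice 1 and 2 were below the vehicle range and mouse 3 was within it. The log2 fold changes were -0.68 for Cxcr3, with a 95% interval of -1.40 to 0.04, and -0.42 for Cxcr6, with an interval of -0.98 to 0.13. The intervals of these 5 genes all include 0, and their lower ends lie between -2.84 and -0.98.

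The comparison of CWG-cPIP–treated CUG300 mice with CUG10 mice asks which differences were present under treatment. Limma called 0 of the tested genes here too (0% in either direction), with 1997 (13.4%) at an unadjusted p under 0.05. All 6 means were higher in the treated mice, while 49.9% of tested genes had a lower mean. The 4 ligands had an unadjusted p under 0.05, against 8.12% of tested genes with such a p in the higher direction. The log2 fold changes were 2.98 ± 0.70 for Cxcl10 and 2.05 ± 0.59 for Cxcl9 (SE, limma adjusted p = 0.156 for Cxcl10 and 0.214 for Cxcl9). They were 1.49 ± 0.40 for Cxcl13 and 1.71 ± 0.59 for Cxcl16 (SE, limma adjusted p = 0.189 for Cxcl13 and 0.274 for Cxcl16). Cxcr6 and Cxcr3 had log2 fold changes of 0.55 and 0.45. The treated mice were all above the CUG10 mice for Cxcl10, Cxcl13 and Cxcr6, a pattern that 13.4% of tested genes showed. Without CWG-cPIP mouse 2, the 4 ligands passed limma's threshold, with log2 fold changes of 3.95 for Cxcl10, 2.78 for Cxcl9, 2.42 for Cxcl16 and 2.05 for Cxcl13. In that fit 567 of the 14867 tested genes (3.81%) were called. The other alternatives called 0 to 14 genes and none of the 6. This comparison shares its mice with the other comparisons.

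By group means the order was the same for all 6 genes, with vehicle-treated CUG300 mice highest, CWG-cPIP–treated CUG300 mice next and CUG10 mice lowest. The steps between the treated mice and the group above or below them did not pass limma's threshold for any of the 6 genes.

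The 3 CWG-cPIP–treated mice differed from each other in the same order for every one of the 6 genes, with mouse 3 highest, mouse 1 next and mouse 2 lowest. This order held in 34.3% of all tested genes and in 54 of 68 chemokine network genes. Of the marker lists described below, T and NK cell markers had it most often, in 19 of 20. It held in 5 of 7 B and plasma cell markers and in 7 of 11 monocyte and border macrophage markers. In the remaining marker lists its share lay between 12.5% (choroid plexus) and 42.9% (astrocyte and endothelial). On a scale with the CUG10 mean at 0% and the vehicle-treated CUG300 mean at 100%, mouse 3 lay between 84.1% and 119.7% over the 6 genes, with a median of 102.9%. Mouse 1 lay between 16.9% and 84.9%, with a median of 69.0%. Its ligands lay between 62.4% and 84.9%, while Cxcr3 was at 16.9% and Cxcr6 at 38.1%. Mouse 2 lay between 9.79% and 24.6%, with a median of 15%. The level of the vector's transcript in each mouse was not analysed here, so its part in this order was not tested.

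Measured against the CUG10 mean, Cxcl10 was 19.7-fold higher in CWG-cPIP mouse 3, 12.1-fold in mouse 1 and 2.06-fold in mouse 2. In vehicle-treated CUG300 mice Cxcl10 was 16.5- to 20.9-fold higher than that mean. Mouse 2 lay within the CUG10 range for Cxcl9, Cxcl16 and Cxcr3, and slightly above it for Cxcl10, Cxcl13 and Cxcr6.

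**Figure D3:**
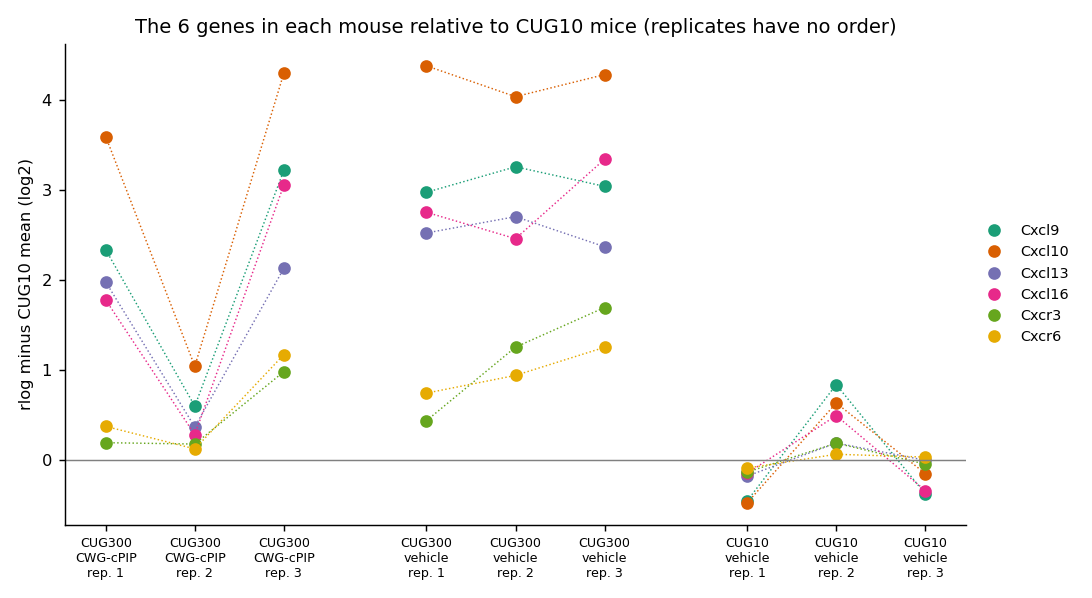
rlog value of each gene minus its mean in CUG10 mice (log2 scale), by mouse, with a colour for each gene. The CWG-cPIP–treated mice are spread, with mouse 2 at most 1.04 above the CUG10 mean and mouse 3 at up to 4.30, while all ligands in vehicle-treated CUG300 mice lie above 2.

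The wider chemokine network was read from lists holding 90 further genes, of which 3 had 1 value in all mice, 19 were under the minimum and 68 were tested. In vehicle-treated CUG300 mice against CUG10 mice, 36 of the 68 were called higher and 1 lower, against 7.37% and 3.34% of all tested genes, and their median log2 fold change was 0.94. Of these 68 genes, 2 (Ifng and Ccr9) had a CUG10 mean under the minimum and passed through the CUG300 mice. Between CWG-cPIP and vehicle in CUG300 mice, limma called 0 of the 68 genes and 0 of all tested genes. At an unadjusted p under 0.05 in limma, 2 of the 68 were lower, against 3.6% of all tested genes. The median log2 fold change was -0.42 for the 68 genes and -0.0032 for all tested genes.

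The calls of each network list below stand against 7.37% of all tested genes called higher and 3.34% called lower in the same comparison. Among the other CXC chemokines 1 of 5 tested genes was called, and it was higher. Cxcl11 encodes the remaining CXCR3 ligand and is annotated as a polymorphic pseudogene in GENCODE M21, since the C57BL/6 allele does not encode a functional protein. It lay 10654 bases from Cxcl10 on the same strand (chr5:92359544-92365485). Cxcl11 had values of 8.55, 7.97 and 8.28 in vehicle-treated CUG300 mice and 4.83, 5.14 and 4.93 in CUG10 mice, with a log2 fold change of 3.30 ± 0.67 (SE, limma adjusted p = 0.0255). In CWG-cPIP–treated mice Cxcl11 had 6.94, 5.06 and 8.44, the same order of mice as in the 6 genes. The neutrophil chemokines Cxcl1 and Cxcl2 were under the minimum. Cxcl5, another neutrophil chemokine, had a log2 fold change of 0.73 and did not pass (limma adjusted p = 0.0811).

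Of the other CXC and atypical receptors 1 of 4 tested genes was called. Cxcr4, the CXCL12 receptor of many leukocytes, was higher in vehicle-treated CUG300 mice by a log2 fold change of 1.69 ± 0.42 (SE, limma adjusted p = 0.0392). Ackr1, an atypical receptor of venular endothelium that binds many chemokines, had 0.36 and did not pass. The neutrophil receptor Cxcr2 was under the minimum, and Cxcr1 was listed at 0 in every mouse.

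The CC, C and CX3C chemokines had 11 higher and 1 lower of 18 tested. Ccl2 and Ccl7, which attract monocytes through CCR2, had log2 fold changes of 4.21 ± 0.74 and 4.22 ± 0.76 (SE, limma adjusted p = 0.0221 for each). Ccl3, a ligand of CCR1, was higher by 2.0 (limma adjusted p = 0.0438). The gene called lower was Cx3cl1, the neuronal ligand of the microglial receptor CX3CR1, with a log2 fold change of -0.34 (limma adjusted p = 0.0431). It was the only network gene called lower and is named for that reason, after its values were seen. The Cx3cl1 call was lost with quantile scaling (limma adjusted p = 0.143), without the filter (0.0568), with only the groups compared (0.0853) and with the replicate block (0.0698). It was also lost when any CUG10 mouse, CUG300 mouse 1 or 3, or CWG-cPIP mouse 1 or 2 was left out, with the log2 fold change between -0.37 and -0.30 over all omissions. The matching receptors had 5 higher of 7 tested, with Ccr2, the monocyte receptor, at 2.82, Ccr7, the receptor of migrating dendritic cells and naive T cells, at 2.5 and Ccr1 at 1.97.

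The interferon list holds cytokines, receptors and signaling genes known to act upstream of Cxcl9 and Cxcl10, along with feedback inhibitors, and 12 of 21 tested were higher in vehicle-treated CUG300 mice. The 12 included Socs1 and Socs3, which encode feedback inhibitors of JAK-STAT signaling, with log2 fold changes of 2.52 and 2.7 (limma adjusted p = 0.0266 for Socs1 and 0.0328 for Socs3). Both are outside the rule for named genes and were chosen after their values were seen. Irf7 and Irf1, transcription factors of the interferon response, had log2 fold changes of 3.59 ± 0.55 and 2.93 ± 0.47 (SE, limma adjusted p = 0.0207 for each). Ifng and Ifnb1, the only interferon genes in this list, did not pass. Ifng, which encodes interferon gamma, had values of 4.13, 3.79 and 3.78 in CUG300 mice and 3.22, 3.29 and 3.19 in CUG10 mice. It reached the minimum only through the CUG300 mice, so these values are a description. Ifnb1, which encodes interferon beta, had 5.12, 4.05 and 4.87 in CUG300 mice and 3.48, 3.48 and 3.48 in CUG10 mice, with a limma adjusted p of 0.0603. For Ifnb1 every CUG300 mouse was above every CUG10 mouse, which 18.2% of tested genes also showed.

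The lymphotoxin list, fixed for signals that drive Cxcl13 in lymphoid tissue, had 6 higher of 8 tested. Ltb, the membrane subunit of lymphotoxin, was higher by 1.52, the TNF receptor gene Tnfrsf1b by 2.10 and the noncanonical NF-kB subunit gene Nfkb2 by 1.84. Lta was under the minimum. Of the 5 tested genes for proteases that cut or release the ligands, 0 were called by limma, with 2 at an unadjusted p under 0.05, against 30.5% of all tested genes. Adam10 had a log2 fold change of 0.05 and Adam17 one of 0.59 (limma adjusted p = 0.0906). Dpp4, which trims CXCL9 and CXCL10, had 0.80 (limma adjusted p = 0.0724). The difference of Adam10 turned negative under median centering of each mouse, at -0.02.

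**Figure D4:**
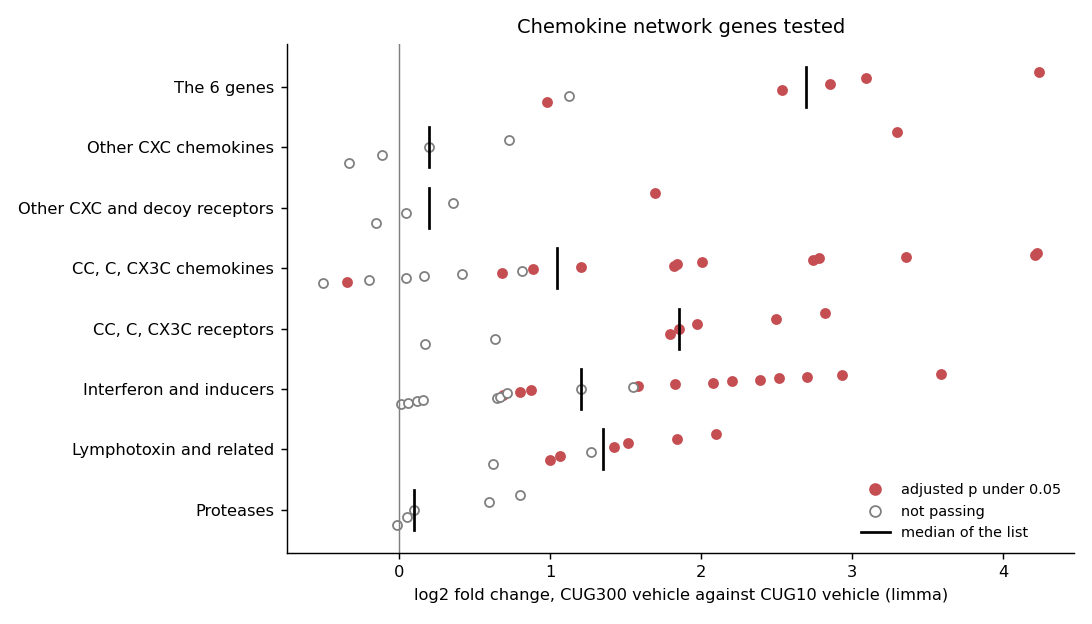
log2 fold changes in vehicle-treated CUG300 mice against CUG10 mice for the 6 genes and the 7 network lists, a point for each tested gene. Filled points passed limma's threshold, and the black line is the median of the list, 2.69 for the 6 genes and 0.10 for the proteases.

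The receptors are genes of lymphocytes, so their values were set beside marker lists. In bulk tissue, fewer cells of a type and less RNA per cell cannot be told apart. The 20 tested T and NK cell markers had 13 higher genes in vehicle-treated CUG300 mice against CUG10 mice, where 7.37% of all tested genes were called higher, and a median log2 fold change of 1.23. Their mean rlog value was 5.56, 5.03 and 6.45 in CWG-cPIP–treated mice, 6.01, 6.21 and 6.38 in vehicle-treated CUG300 mice and 4.82, 5.07 and 4.87 in CUG10 mice. Gzmb and Gzma, which encode granzymes of cytotoxic lymphocytes, were higher by 3.20 and 2.82 in the same comparison (limma adjusted p = 0.0246 for Gzmb and 0.0267 for Gzma). Of the T cell receptor complex subunits, Cd3d was higher by 1.55 (limma adjusted p = 0.0476), and Cd3e had 0.75 and did not pass. No tested marker of this list was at 0 in any group, and Trac, Trbc1 and Trbc2 were not analysed here.

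The 7 tested B and plasma cell markers had 3 higher genes in the same comparison, against 7.37% of all tested genes. Of the 7, 2 had a CUG10 mean under the minimum and reached it only through other mice, and neither was among the 3. Ms4a1 was under the minimum. Between CWG-cPIP and vehicle limma called 0 of the 7, with 5 lower at an unadjusted p under 0.05, against 3.6% of all tested genes. Their mean was 4.70, 4.55 and 5.06 in CWG-cPIP–treated mice, 4.82, 5.63 and 6.56 in vehicle-treated CUG300 mice and 4.0, 4.33 and 4.0 in CUG10 mice. Jchain, the joining chain of secreted antibodies, had values of 7.94, 10.04 and 11.79 in vehicle-treated CUG300 mice and 5.63, 6.74 and 5.55 in CUG10 mice. In CWG-cPIP–treated mice Jchain had 8.48, 8.14 and 8.24. Mzb1, which encodes an endoplasmic reticulum protein of B and plasma cells, had a log2 fold change of 2.43 in vehicle-treated CUG300 mice against CUG10 mice (limma adjusted p = 0.0318). The part of lymphocyte content in any of the 6 genes was not tested.

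**Figure D5:**
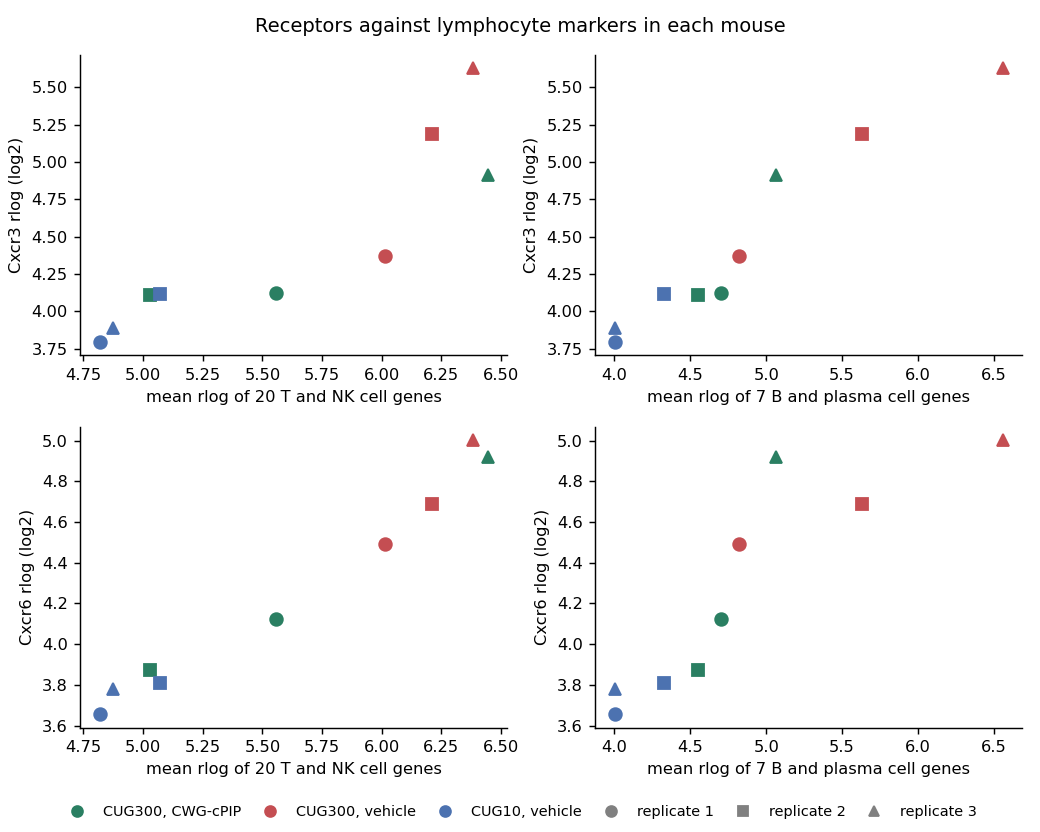
Cxcr3 and Cxcr6 rlog values (log2 scale) against the mean rlog value of 20 T and NK cell markers and of 7 B and plasma cell markers, a point for each of 9 mice. CUG10 mice lie at the lower left with Cxcr3 between 3.80 and 4.12, and vehicle-treated CUG300 mouse 3 has the highest Cxcr3 at 5.63.

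Calls in the other marker lists were also set against the 7.37% of tested genes called higher and 3.34% called lower. Of 11 tested monocyte and border macrophage markers 5 were higher, with Ly6c2, a marker of inflammatory monocytes, at 4.52 and Plac8 at 4.38. The other 6 did not pass, among them the border macrophage markers Mrc1 at 0.36, Lyve1 at 0.34, Cd163 at 0.32 and Pf4 at 0.19. Of 10 microglial markers 3 were higher, with Aif1 at 1.63, Olfml3 at 0.95 and Tmem119 at 0.77, while P2ry12 had -0.34 and did not pass. Of 7 astrocyte markers 2 were higher, with Gfap at 1.21 and Aqp4 at 0.91, while 3 had a lower mean and did not pass. These included Slc1a2 at -0.85 and Gja1 at -0.54. Of 7 endothelial markers 1 was higher (Ly6c1), while 2 had a lower mean and did not pass, among them Slco1a4 at -0.45. Mrc1, Lyve1, Cd163, Pf4, Slc1a2, Gja1 and Slco1a4 are outside the rule for named genes and were chosen after their values were seen. Of 10 hippocampal neuron markers 1 was lower, Fibcd1 of CA1 at -0.80. The part of these cells in the 6 genes was not tested.

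Markers of neighbouring brain tissue differed between mice. The mean of 8 choroid plexus markers lay between 5.84 and 5.97 in CWG-cPIP–treated mice and between 7.47 and 8.41 in vehicle-treated CUG300 mice, and was 5.64, 6.96 and 8.19 in CUG10 mice. Limma called 0 of the 8 between CWG-cPIP and vehicle, with 7 lower at an unadjusted p under 0.05, against 3.6% of all tested genes. The mean of 8 thalamus and diencephalon markers lay between 5.76 and 6.16 in CWG-cPIP–treated mice, between 4.86 and 5.56 in vehicle-treated CUG300 mice and between 4.91 and 5.20 in CUG10 mice. Of these 8, 2 had means under the minimum in both vehicle-treated groups and reached it only through the CWG-cPIP–treated mice. The higher mean of this list in treated mice rests in part on these 2 genes and is a description. Between CWG-cPIP and vehicle, tissue content and treatment cannot be told apart.

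The genes whose values most resembled those of each of the 6 genes were ranked by Pearson's r over the 9 mice. These values are a description with no test, since the points share groups and libraries. Cxcl10 was closest to Parp12 (r = 0.999), Trim21, Usp18, Ifi47 and Ifit3b, all known as interferon-induced genes. Cxcl9 was closest to Cybb (r = 0.995), a phagocyte NADPH oxidase subunit, Plek, Irf8, Il2rg and Ifi204. Cxcl16 was closest to Fcer1g (r = 0.999), an adaptor of Fc receptors, Tnfrsf1a, Gsdmd, Arpc1b and H2-K1. Cxcl13 was closest to Chaf1b (r = 0.991), Nfe2l2, Phf11d and Fgd2, and then to Cxcl10 (r = 0.984).

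The receptors had lymphocyte genes among their nearest. Cxcr3 was closest to Cd28 (r = 0.993), a T cell costimulatory receptor, and its 5 nearest genes also held Ets1, Tigit and Nlrp1b. Cxcr6 was closest to Klrb1b (r = 0.996), an NK cell receptor, followed by Tnip2, Napsa, Gimap7 and Cxcr4. None of the 5 nearest genes of one receptor was among the 5 nearest of the other.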

How the data were processed

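RNA-Seq values of 9 mouse hippocampi were analysed. Per the labels and the study's methods, the authors sequenced directional libraries as paired 150-nt reads, trimmed them (Trim Galore 0.6.6), aligned them to mm10 (STAR 2.7.9a), quantified genes (RSEM 1.3.3) and deposited rlog values, on a log2 scale, from DESeq2 1.36.0. The annotation, the strand setting and the rlog options are not given in the sources used here, and depth is unknown. Groups came from the sample titles. Genes whose mean reached log2(10), 14867 of 24411, were tested with limma 3.58.1 (R 4.3.3, trend, all mice in 1 fit, no block), with Benjamini-Hochberg adjustment over all of them and a threshold of 0.05. Differences between 2 genes within a mouse were compared by two-sided exact permutation. The fit was tested on simulated data. The 6 genes and all lists were chosen with earlier results of these data known. Named genes were the 6, the first 2 of each list, the 2 with the largest differences and the 5 nearest by correlation, with exceptions marked in the text. Some genes that this rule covers are not reported here. Alternatives covered scaling, filter, variance model, mice in the fit, replicate block and leaving out each mouse.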

Additional observations from a re-analysis of the deposited data

How the results depend on the processing

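The log2 fold changes of the 6 genes kept their direction in all 3 comparisons under every alternative run. In vehicle-treated CUG300 mice against CUG10 mice, 5 of the 6 were called. The count was 3 of 3 tested with a mean of at least log2(100), because the other genes were then not tested, and 4 with quantile scaling, where Cxcr6 had an adjusted p of 0.0518. It was 6 with only the groups compared (Cxcr3 adjusted p = 0.0431), and 5 with median centering, no filter, no trend or robust estimation. Leaving out each mouse gave 0 to 6 called, and 0 to 48 of the network genes, against 36 higher and 1 lower with all mice. For CWG-cPIP against vehicle the count stayed at 0 for the 6 genes and ranged from 0 to 1 for the network, and for CWG-cPIP against CUG10 mice it ranged from 0 to 4 for the 6 genes and from 0 to 25 for the network. The cause of these changes was not tested.

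With the replicate number as a block, all 6 genes were called in vehicle-treated CUG300 mice against CUG10 mice (Cxcr3 adjusted p = 0.0359), as were 35 network genes, and Ifnb1 then had an adjusted p of 0.044. The labels do not say whether the numbers pair the mice. Deviations from the group means correlated between -0.50 and 0.41 for same-numbered mice, and between -0.52 and 0.46 for differently numbered mice. These similar ranges, from 3 mice a group, cannot decide whether mice were paired.

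Small log2 differences that were not called turned sign in a few fits. Adam10 in vehicle-treated CUG300 mice against CUG10 mice was -0.0237 with median centering, and ranged from -0.0427 to 0.157 when each mouse was left out. With CWG-cPIP against vehicle the same omissions gave -0.0456 to 0.154 for Adam10, -0.385 to 0.138 for Ackr1 and -1.21 to 0.0059 for Ccl3, and with CWG-cPIP against CUG10 mice -0.0272 to 0.495 for Ackr1. In vehicle-treated CUG300 mice against CUG10 mice, Ccl3 lost its call without the filter (limma adjusted p = 0.0534). Cx3cl1 lost its call in 4 of the 8 settings other than leaving out a mouse and in 7 of 9 omissions. Adam17 and Dpp4 gained a call with only the groups compared. Adam17 also gained one without CWG-cPIP mouse 2 (limma adjusted p = 0.0392) or CWG-cPIP mouse 3 (0.0389).

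Precision rests on 3 mice a group. With no counts deposited, counting error could not be given. The rlog scale understates differences of low genes, so Cxcr3, Cxcr6, Cxcr5 and Ifng are the least certain in size.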
